A study of Mus musculus with 74 samples.

Results

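H3K27ac, the acetylation of lysine 27 on histone H3, was measured by ChIP-seq in 2 livers lacking GPS2 in hepatocytes (LKO) and in 2 control livers (WT). The regions described are the 59843 of 85764 rows of the authors' shared table of H3K4me3 and H3K27ac regions that overlapped, by at least 1 bp, an H3K27ac peak in at least 1 of these 4 libraries. Of these, 31938 were overlapped by the peak lists of all 4 libraries and 12735 by 1 list only. WT mice were Gps2 flox/flox without Cre and came from the same breedings as the LKO mice, which carried in addition an Alb-Cre transgene driven by the albumin promoter. All were on a C57BL/6 background, 8 to 12 weeks old and fed chow, and both groups carried the floxed alleles. The study's methods state that its mice were male, and the headers of the H3K27ac counts name the fed state for both groups. Recombination was directed to hepatocytes, so the other liver cells were meant to keep Gps2, which was not tested here. A region of lower signal in bulk liver cannot be told apart as fewer cells or less acetylation per cell. The comparison asked where the mark depended on hepatocyte GPS2. Further ChIP-seq libraries from the series (GPS2, NCOR, PPARα, H3K4me3, and H3K27ac in livers with liver-specific loss of Ncor or Smrt, called Ncor LKO and Smrt LKO, with their own WT groups of the same strain and age) and RNA-seq of 4 WT and 4 LKO livers served as other readouts. Whether the readouts of the Gps2 line came from the same animals as the H3K27ac libraries is not given in the labels.

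Acetylated H3K27 marks active promoters and enhancers. It is laid down by acetyltransferases such as p300 and CBP and removed by histone deacetylases. GPS2 is a subunit of the corepressor complex built on NCOR or SMRT that carries the deacetylase HDAC3, and nuclear receptors recruit this complex to regulatory elements when they are not activated. PPARα, the fatty acid sensing nuclear receptor of hepatocytes, drives genes of fatty acid oxidation and ω-hydroxylation and is one of the receptors that the complex binds.

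Shown here are 4 regions bound by GPS2 in WT liver, at genes of fatty acid handling (Acot3, Cyp4a14), sphingolipid synthesis (Cers6) or ethanol oxidation (Cyp2e1). Each overlaps an H3K27ac peak that was higher in LKO liver. Of the GPS2 regions in the higher peaks named in this report, 1 per gene, these 4 held the most WT tags. The regions were thus selected for high GPS2 tags in WT. They are the mm9 plus strand, 5′ to 3′, with GGTCA, the core of the nuclear receptor hexamer AGGTCA, and its reverse complement in capitals, extended to AGGTCA where all 6 bases matched. The first lies at chr12:85383366-85383502, upstream of Acot3, and held 88 GPS2 tags in the WT library and 0 in the LKO library. The second lies at chr2:68740667-68740803 in intron 1 of Cers6 and held 59 and 2 tags. The third lies at chr4:115170273-115170409 by Cyp4a14 and held 46 and 2 tags, and the fourth, at chr7:147942542-147942678 by Cyp2e1, held 45 and 1.
Acot3: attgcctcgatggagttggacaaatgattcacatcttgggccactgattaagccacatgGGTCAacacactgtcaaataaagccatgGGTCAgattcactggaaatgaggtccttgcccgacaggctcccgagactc
Cers6: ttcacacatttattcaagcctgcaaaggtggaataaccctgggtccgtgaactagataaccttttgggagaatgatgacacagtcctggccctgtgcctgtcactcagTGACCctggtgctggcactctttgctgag
Cyp4a14: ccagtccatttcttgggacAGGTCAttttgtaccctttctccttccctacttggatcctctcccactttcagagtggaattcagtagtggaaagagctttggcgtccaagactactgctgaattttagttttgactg
Cyp2e1: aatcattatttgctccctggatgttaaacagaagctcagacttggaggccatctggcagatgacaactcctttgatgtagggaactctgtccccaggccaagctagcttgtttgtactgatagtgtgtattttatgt
The Acot3 region held GGTCA at 2 places, the Cers6 region held it at 1 place on the minus strand, the Cyp4a14 region held the full AGGTCA once and the Cyp2e1 region held neither. Among 48960 GPS2 regions of 137 bases, 41.6% contained GGTCA and 23.9% contained AGGTCA on either strand, AGGTCA being counted in both. A match to AGGTCANAGGTCA, the spaced repeat that a PPARα:RXR dimer recognises, was found with up to 2 mismatches in 8.85% of these regions and in none of those 4.

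The knockout was checked with the GPS2 ChIP-seq itself, in which 48968 regions were listed for the WT library and 52 for the LKO library (1 library each). Gps2 RNA was 255 ± 11.4 normalised counts in WT and 177 ± 30.6 in LKO livers (SD, n = 4 each), a log2 fold change of -0.53 ± 0.11 (SE, adjusted p = 0.0021). The H3K27ac peak at Gps2 itself held 219 and 215 normalised tags in WT and 224 and 217 in LKO (tags scaled to a library of 10000000, the scale of all H3K27ac and H3K4me3 levels given here). It checks nothing, since the deletion need not remove it. Total tags were 25.02 M and 29.4 M in the WT libraries and 26.6 M and 29.4 M in the LKO libraries, with 71.2% to 76.0% of them inside the regions. Every pair of libraries differed by more than sampling noise. The chi-square per region was 2.72 between the WT libraries, 4.77 between the LKO libraries and 4.79 to 7.74 between genotypes, so the LKO libraries lay nearly as far apart as the closest WT and LKO pair. The labels number the samples within each group and do not say from how many animals each pool of chromatin came, so p-values measure the spread between these samples.

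H3K27ac rose at far more regions than it fell when libraries were scaled to total tags. With edgeR's quasi-likelihood test and Benjamini-Hochberg adjustment, 925 regions (1.55%) were higher and 166 (0.277%) lower in LKO liver at an adjusted p below 0.05, while 7957 regions had an unadjusted p below 0.05. In all called regions both LKO libraries lay outside the range of the WT libraries. The same separation was seen in 27.9% of all regions upward and 14.9% downward. At the higher regions the median level went from 44.0 normalised tags in WT to 89.4 in LKO, and at the lower regions from 133 to 64.7. The median log2 fold change was 0.97 over the higher regions (0.37 to 4.13), -1.03 over the lower regions (-2.57 to -0.41) and 0.06 over all regions. Changes of at least 2-fold were seen in 437 of the higher and 86 of the lower regions. Called regions were wider than the rest, with a median of 2944 bp for the higher, 3630 bp for the lower and 1890 bp for all. Scaled by TMM (trimmed mean of M-values), which moved the median of all regions to 0.01, 582 regions (0.973%) were higher and 192 (0.321%) lower. Higher regions thus made up 84.8% of calls with total tags and 75.2% with TMM, and 582 and 158 of the regions called with total tags were called in the same direction with TMM. The counts depended strongly on single libraries: 7 higher and 2 lower regions were called without WT replicate 1, 39 and 13 without WT replicate 2, 2550 and 1357 without LKO replicate 1, and 2171 and 288 without LKO replicate 2.

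**Figure D1:**
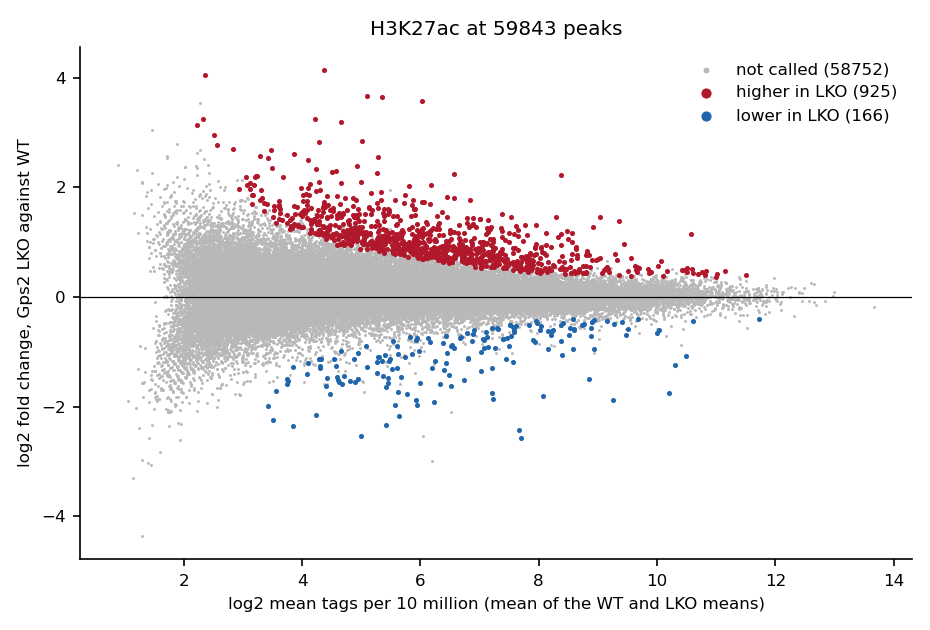
H3K27ac in Gps2 LKO against WT liver over 59843 regions. The x axis is the mean level (log2 of normalised tags) and the y axis the log2 fold change, with regions called higher in red (925) and lower in blue (166) and the rest in grey, libraries scaled to total tags. The called regions extend to 4.13 above and -2.57 below no change.

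The largest rises were mostly at distal and intronic regions, as were most regions of the set. The 10 largest, 1 per nearest gene, had 1.20 to 44.8 normalised tags in WT and 22.9 to 166 in LKO libraries. Of these, 7 were intronic, 3 intergenic, and 7 lay more than 10000 bp from the nearest start site. Among all regions 52.7% were intronic and 33.2% intergenic. By distance, 38.6% of all regions lay above 10000 and up to 50000 bp away and 23.2% beyond 50000 bp. The largest of all lay in intron 2 of 9 of Tmeff2, a transmembrane protein with follistatin-like domains (chr1:50991593-50992684, 7771 bp inside the gene), with 1.20 and 3.06 normalised tags in WT and 41.8 and 37.0 in LKO. Its log2 fold change was 4.13 ± 0.34 (SE, adjusted p = 0.000761), and the libraries of the 2 genotypes were far apart. Tmeff2 RNA went from 8.56 ± 4.83 to 579.8 ± 28.3 normalised counts (SD, n = 4 each, log2 fold change 6.04, adjusted p = 1.35e-11).

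Cux2 encodes a homeodomain transcription factor expressed in female liver, and its largest rise lay in intron 2 of 22 (chr5:122448821-122450939). WT libraries held 4.40 and 2.72 normalised tags there and LKO libraries 25.2 and 41.8, a log2 fold change of 3.25 ± 0.37 (adjusted p = 0.00247) with no overlap. Cux2 RNA rose from 5.41 ± 3.55 to 242 ± 51.3 normalised counts (adjusted p = 3.46e-09). A region in intron 7 of 13 of Cdk5rap1, which modifies tRNA, held 7.19 and 3.06 tags in WT and 22.9 and 68.3 in LKO (3.19 ± 0.54, adjusted p = 0.0161). The LKO libraries lay far apart here though neither reached the WT range, and Cdk5rap1 RNA did not change detectably (78.8 ± 4.22 and 82.5 ± 13.9 normalised counts, adjusted p = 0.737).

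Asns encodes asparagine synthetase, a target of the amino acid response factor ATF4. The region in its intron 1 of 11 (chr6:7638434-7643702, 2114 bp inside the gene) held 44.8 and 22.5 normalised tags in WT and 146 and 166 in LKO, so that every LKO value was above every WT value. Its log2 fold change was 2.23 ± 0.24 (adjusted p = 0.00203), it remained called in every alternative in which it was tested, and Asns RNA rose from 58.7 ± 16.5 to 462 ± 36.4 normalised counts (adjusted p = 2.85e-09). No GPS2 region was listed within it in WT liver. Fam19a2, a secreted chemokine-like protein, had a rise deep in intron 2 of 5, 360204 bp from its start (12.8 and 13.6 against 60.2 and 67.2 tags, 2.27 ± 0.20, adjusted p = 0.00091). The intronic rise 346 bp inside Cyp2c40, an arachidonate-metabolising P450, went from 6.40 and 8.85 to 48.9 and 26.5 tags (2.28 ± 0.34, adjusted p = 0.00921, also called with TMM). Cyp2c genes are near copies of each other, so the assignment of tags among them is uncertain. The other rises of this group lay in intron 6 of 14 of Bmper, a regulator of BMP signalling (2.83 ± 0.33), and between genes nearest to C230079O03Rik, Gm38404 and Gm27162 (2.84, 2.39 and 2.10). GPS2 regions of WT liver lay in 2 of the 10, PPARα regions in 7 and NCOR regions in 4, against 45.1%, 53.4% and 44.2% of all regions.

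**Figure D2:**
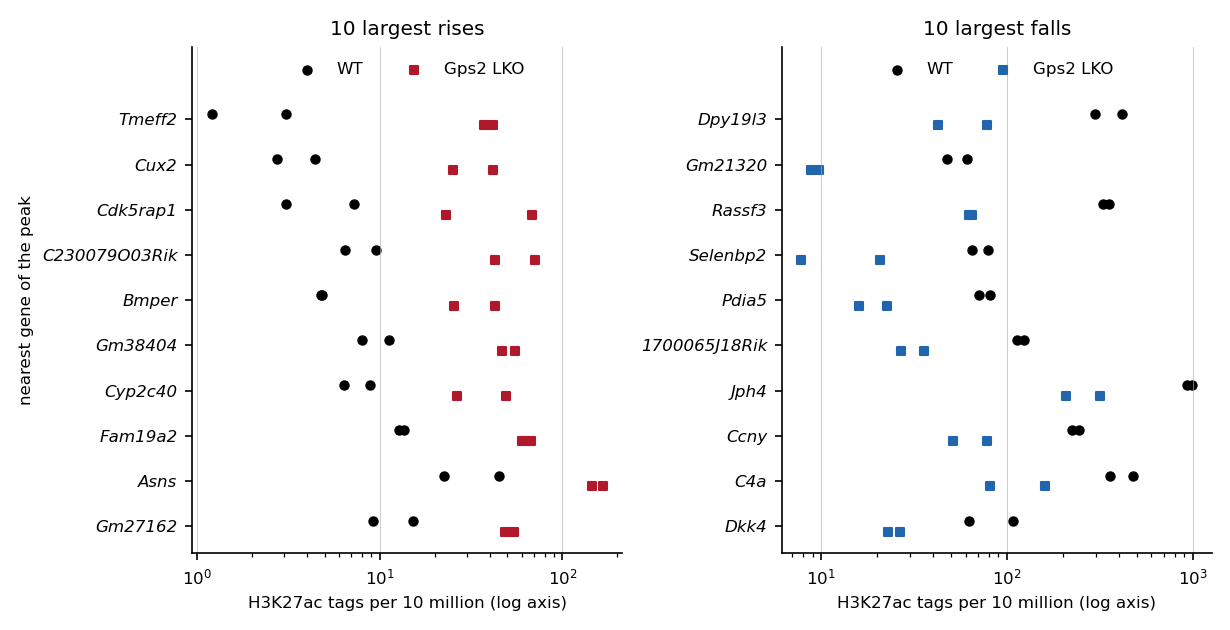
H3K27ac in normalised tags (scaled to 10000000 tags per library, log axis) in each of the 2 WT (black) and 2 LKO (coloured) libraries at the 10 largest rises and 10 largest falls, 1 region per nearest gene. In none of the 20 regions do the genotypes overlap, WT values of the rises lie between 1.20 and 44.8, and LKO values of the falls lie between 7.81 and 318.

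The 10 largest falls held 47.7 to 998 normalised tags in WT and 7.81 to 318 in LKO libraries. Choosing by fold change among regions with a mean of at least 50 tags itself favours low WT levels among the rises and high WT levels among the falls. Of these 10, 8 held a GPS2 region, 8 a PPARα region and 9 an NCOR region, and 7 were intergenic. The shares over all regions were 45.1%, 53.4%, 44.2% and 33.2%. Occupancy rose with width, as given below, and the 10 falls were 1816 to 15605 bp wide against 1045 to 5269 bp for the 10 rises. The difference in occupancy from the largest rises, and the part of width in it, was not tested. Dpy19l3, a C-mannosyltransferase of the endoplasmic reticulum, had the largest, in intron 3 of 18 (chr7:36528076-36535763), with 416 and 298 tags in WT and 77.9 and 42.5 in LKO. The log2 fold change was -2.57 ± 0.24 (adjusted p = 0.00103), both WT values being far above the LKO values, and Dpy19l3 RNA fell from 166 ± 14.7 to 29.1 ± 14.3 normalised counts (adjusted p = 1.20e-06).

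Rassf3, a RAS association domain protein, had 2 of the most reproducible falls. At chr10:120945664-120954050, 36551 bp upstream of its start, WT libraries held 356 and 328 normalised tags and LKO libraries 64.7 and 62.2 (-2.43 ± 0.11, adjusted p = 1.60e-05). The adjoining region at chr10:120920958-120939641 held 1823 and 1793 in WT and 554 and 522 in LKO (-1.75 ± 0.08, adjusted p = 1.60e-05). In both, replicates of a genotype lay close together and the genotypes far apart, and both stayed called in every alternative. Rassf3 RNA fell from 2008 ± 73.6 to 1067 ± 52.8 normalised counts (adjusted p = 9.77e-08).

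Near the start of complement component C4a a region annotated at a transcript end fell (chr17:34954728-34965163, 454 bp from the start, 477 and 359 against 159.9 and 81.2 tags, -1.80 ± 0.24, adjusted p = 0.00606), and C4a RNA went from 493 ± 55.0 to 60.9 ± 3.73 normalised counts. C4a and C4b are near copies, so tags and reads may have been split between them. Upstream of Jph4, a junctophilin, the strongest WT region of this group went from 998 and 929.8 tags to 318 and 208 (-1.88 ± 0.16, adjusted p = 0.00086). Upstream of Pdia5, a protein disulfide isomerase, levels went from 80.7 and 70.8 to 22.6 and 15.96 tags (-1.98 ± 0.20, adjusted p = 0.00165). Pdia5 RNA was 1303 ± 25.4 and 1417 ± 113 normalised counts and was not called. Falls of -1.78 to -2.54 at Gm21320, 1700065J18Rik, Ccny (cyclin Y) and Dkk4 (a Wnt antagonist) and at Selenbp2, described with the male-biased genes, completed the 10. A smaller region upstream of Slc22a7, an organic anion transporter, went from 18.8 and 15.7 to 4.51 and 4.08 tags (-1.99 ± 0.33, adjusted p = 0.016), and its RNA from 820.5 ± 22.9 to 412 ± 61.0 normalised counts. Gm21320 lies in the major urinary protein cluster, whose genes are near copies.

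Called regions tended to be single, with some domains of several. Regions changed in the same direction and no more than 20000 bp apart formed 753 loci of higher and 128 loci of lower H3K27ac, of which 631 and 108 were single regions and 34 and 9 held 3 or more. The 4 called regions of Tmeff2 formed a domain of 33.4 kb with log2 fold changes of 3.57 to 4.13, and their summed mean level went from 23.0 to 299 normalised tags. By nearest gene, Bmper had the most higher regions, 10 of its 21, spread over intron and flank up to 213795 bp from its start, and their summed level went from 251 and 252 normalised tags in WT to 596 and 746 in LKO. Cers6, ceramide synthase 6, had 8 of 13 higher, with sums of 624 and 789 in WT against 1255 and 1423. Within it, the region overlapped by the GPS2 sequence shown above rose from 19.6 and 18.7 to 59.1 and 59.1 tags (1.62 ± 0.18, adjusted p = 0.00238), while Cers6 RNA rose more modestly, from 285 ± 14.4 to 439 ± 67.0 normalised counts (0.63 ± 0.10, adjusted p = 0.000381). Corin, a protease that activates natriuretic peptide, had 7 of 9 higher (291 and 303 against 640 and 729), and its RNA went from 1.23 ± 1.497 to 21.3 ± 5.22 normalised counts. Prlr, the prolactin receptor, had 7 of 19 higher (687 and 580 against 1453 and 1072), 5 of them in 1 domain of 41.4 kb. Trim24, a transcriptional co-regulator, also had 7 of 19 higher (316 and 350 against 681 and 687). These sums run over called regions only, in which the genotypes already did not overlap.

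Of the falls, Rassf3 had 6 of 12 regions lower, chained into 1 domain of 97.3 kb with a summed level of 4309 and 4076 normalised tags in WT and 2005 and 2050 in LKO. All 5 regions nearest to the non-coding 1700065J18Rik were lower (291 and 294 against 94.8 and 79.8), as were all 5 nearest to Mup19, a major urinary protein (289 and 262 against 96.7 and 127). Gse1, a subunit of a co-repressor complex, had 5 of 17 lower (2752 and 2275 against 1656 and 1514) and Dpy19l3 had 3 of 4 (678 and 506 against 175 and 121). RNA fell for the 4 of these genes that were tested, with log2 fold changes of -0.91 for Rassf3, -1.22 for Gse1, -1.93 for Mup19 and -2.43 for Dpy19l3. By chromosome, higher regions were most frequent on chromosome 19 (2.40%, against 1.55% of all regions), followed by chromosome 9 (2.23%). Lower regions were most frequent on chromosome 4 (0.665%, against 0.277% of all). Chromosome 19 holds the Cyp2c cluster and chromosome 4 the Mup cluster, and their part in these shares was not tested.

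The share of regions that rose increased with distance from the start site of the nearest gene. Within 1000 bp, 73 of 9276 regions (0.787%) were higher and 19 (0.205%) lower. Above 1000 and up to 10000 bp these were 185 (1.36%) and 39 (0.286%) of 13619, and above 10000 and up to 50000 bp 327 (1.42%) and 72 (0.312%) of 23079. Beyond 50000 bp, 340 of 13869 regions (2.45%) were higher and 36 (0.260%) lower. The median log2 fold change was 0.00, 0.06, 0.07 and 0.11 in these classes. TMM gave the same order of the shares that rose, from 0.571% to 1.5%. The order was also kept when an LKO library was left out. It was not kept when a WT library was left out, where few regions were called. The difference between classes was not itself tested. Classes differed in strength and width, with a median of 367 tags per library within 1000 bp and 58.2 beyond 50000 bp, and their part in the order was not tested. With offsets fitted by loess to the level, the class medians lay between -0.05 and 0.03. The share of each library's tags that fell in a class differed by 0.121 percentage points (LKO minus WT) within 1000 bp and by 1.03, 0.631 and 0.333 in the successive classes beyond. None of the 4 differences could pass an exact two-sided permutation test, whose smallest p with 2 against 2 libraries is 0.333 (p = 1, 0.333, 0.667 and 0.667). By annotation, 459 higher regions were intronic and 388 intergenic, and intergenic regions made up 41.9% of the higher and 47.0% of the lower against 33.2% of all.

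**Figure D3:**
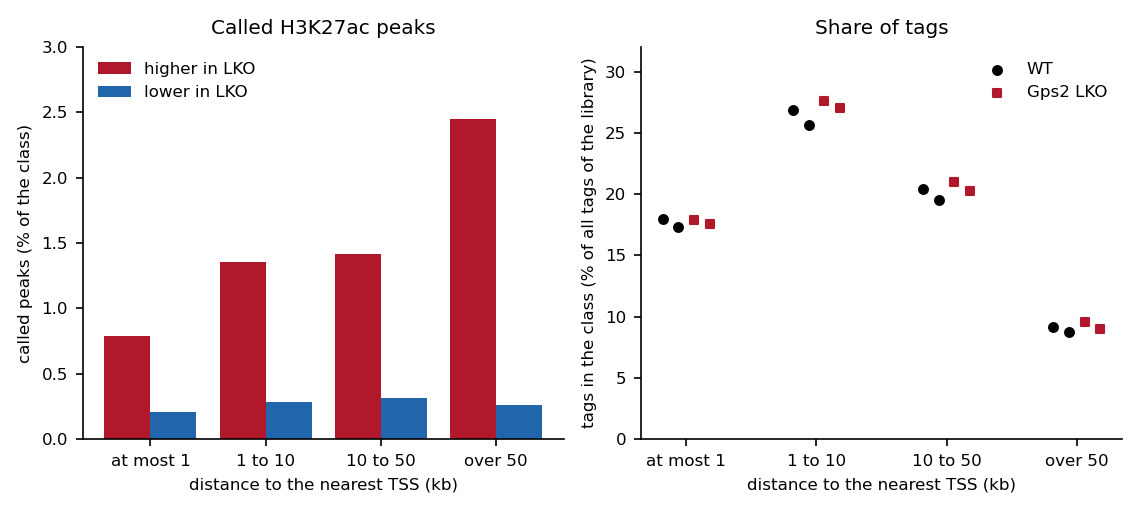
Left, bars give the percentage of regions called higher (red) and lower (blue) in each class of distance to the nearest start site, in kb, and right, points give the percentage of all tags of each WT (black) and LKO (red) library in the class. The share called higher was 0.787% within 1000 bp and 2.45% beyond 50000 bp, and the share called lower stayed between 0.205% and 0.312% in all 4 classes.

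Regions within 20000 bp of a start site were read against lists of genes by function. Of the 32560 such regions 381 (1.17%) were higher and 85 (0.261%) lower, with a median log2 fold change of 0.04. The lists were compiled with earlier results of these data known, so their counts are descriptions. PPARα target genes had 13 of 76 regions higher and none lower (0 by DESeq2, 1 at an unadjusted p below 0.05), with a median of 0.24. With TMM 5 of the 13 remained called. RNA went both ways, with 19 of 38 tested genes of this list higher and 9 lower. Of all 12220 tested genes 23.4% were higher and 21.4% lower.

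Of the PPARα targets, Cyp4a14, a fatty acid ω-hydroxylase, had the largest rise, over the gene body (chr4:115157558-115172069), with 71.5 and 126 normalised tags in WT and 202 and 343 in LKO. Replicates differed within each genotype, and the lower LKO value was still above both WT values (1.46 ± 0.26, adjusted p = 0.0225, not called with TMM). A small region 8136 bp upstream held 2.00 and 3.404 tags in WT and 5.27 and 11.9 in LKO and was not called (adjusted p = 0.237). Cyp4a14 RNA rose from 66.5 ± 11.7 to 1912 ± 140.3 normalised counts (log2 fold change 4.85, adjusted p = 6.76e-13).

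The Acot cluster on chromosome 12 encodes acyl-CoA thioesterases, which free fatty acids from coenzyme A. Its 4 called regions, all rises, formed a domain of 72.3 kb, led by the one that spans the start of Acot3 and contains the sequence shown above (chr12:85377778-85399074). This region held 313 and 406 tags in WT and 758 and 1133 in LKO (1.39 ± 0.17, adjusted p = 0.0041). Acot1 (97.1 and 141 against 231 and 298, 1.14 ± 0.17, adjusted p = 0.01) had LKO values above all WT values as well, and RNA of Acot3 rose from 46.2 ± 11.7 to 732 ± 45.1 normalised counts. Acot1 to Acot6 are near copies, which makes the assignment of tags uncertain.

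Pdk4, pyruvate dehydrogenase kinase 4, which spares glucose when fat is burned, had 3 regions. The one in its intron 10 of 10 (chr6:5435006-5437759) rose from 30.0 and 25.9 to 59.8 and 59.8 tags (1.10 ± 0.18, adjusted p = 0.0124, also called with TMM). The promoter region (195 and 207 against 255 and 280.2) and the region 13304 bp upstream (64.8 and 77.3 against 97.4 and 110.4) separated by genotype too but were not called (adjusted p = 0.0793 and 0.108). Abcd2, a peroxisomal importer of very long chain acyl-CoA, had 2 higher regions, of which the upstream one went from 10.4 and 13.3 to 26.7 and 26.2 tags (1.15 ± 0.24, adjusted p = 0.0391, not called with TMM). The remaining called regions, listed after their values were seen, were at Acot4, Fgf21, Cyp4a31, Cyp4a10, Acot2, Vnn1 and Aldh3a2, with log2 fold changes from 1.13 (Acot4) to 0.66 (Aldh3a2). Fgf21, a fasting hormone of the liver, rose by 0.95 ± 0.13 (adjusted p = 0.00609).

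Genes with female-biased expression in mouse liver had the highest share of rises, 20 of 66 regions with none lower (4 at an unadjusted p below 0.05, 0 by DESeq2) and a median of 0.65. TMM kept 14 of the 20. The list shares Cyp4a14, Acot3, Abcd2 and Cyp4a10 with the PPARα targets. Cyp2a4, a steroid 15α-hydroxylase of female liver, had 3 higher regions of low level, of which the one in intron 3 of 8 held 0 and 1.02 normalised tags in WT (0 and 3 tags) and 7.52 and 11.9 in LKO (20 and 35 tags, adjusted p = 0.0353, not called with TMM). The region 2616 bp upstream held 3.997 and 1.70 in WT and 15.05 and 18.3 in LKO (2.57 ± 0.42, adjusted p = 0.0136). WT values were near 0 in both, and Cyp2a4 RNA went from 52.3 ± 20.7 to 19060.3 ± 1779.7 normalised counts. Cyp2a4 and Cyp2a5 are near copies.

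At the promoter of Slc22a26, an organic anion transporter (chr19:7876374-7877978), levels rose from 8.79 and 6.13 to 34.99 and 28.5 tags (2.10 ± 0.27, adjusted p = 0.00467), and a region upstream of the neighbouring copy Slc22a27 rose from 3.60 and 3.06 to 12.0 and 18.7 (2.20 ± 0.40, adjusted p = 0.0235). Trim24 contributed 4 of the 20 rises, the largest 17623 bp upstream (15.6 and 18.7 against 51.2 and 47.9, 1.52 ± 0.20, adjusted p = 0.00509). In RNA, 21 of 22 tested genes of this list were higher and none lower, where 23.4% of all 12220 tested genes were higher and 21.4% lower.

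Male-biased genes moved the other way in part, with 6 of 101 regions lower and 2 higher and a median of -0.17. Selenbp2, a selenium binding protein, had a fall 14771 bp downstream of its start from 78.7 and 64.7 tags to 20.7 and 7.81 (-2.35 ± 0.32, adjusted p = 0.00618). Its broad promoter region went from 2041 and 1840.5 to 1204 and 637 (-1.08 ± 0.22, adjusted p = 0.034), with the LKO libraries far apart. Mup21 had 2 falls, the larger 7437 bp upstream from 181 and 191 to 75.6 and 70.0 (-1.36 ± 0.12, adjusted p = 0.000933), and Mup21 RNA fell from 5371 ± 218 to 264 ± 39.6 normalised counts. The 2 rises, named after their values were seen, were at Esr1 and Gsta3 (0.91 and 0.41). Of 36 list genes tested in RNA 30 were lower and 3 higher, against 21.4% and 23.4% of all 12220 tested genes. All 4 livers held H3K27ac at the Y-linked genes Ddx3y, Uty and Eif2s3y, with 101 to 216 normalised tags.

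Targets of the xenobiotic receptors CAR and PXR had 12 of 74 regions higher and none lower (0 also at an unadjusted p below 0.05 and by DESeq2), a median of 0.33, and 10 calls with TMM. Cyp2b10, the classical CAR target, had 2 upstream rises, of which the nearer, 3448 bp from the start, went from 29.2 and 29.6 to 88.8 and 89.3 normalised tags (1.60 ± 0.16, adjusted p = 0.00144). Cyp2c29 went from 279 and 286 to 697 and 671 over its first exon and intron (chr19:39356298-39368451, 1.27 ± 0.09, adjusted p = 0.00023). This region stayed called in every alternative, and Cyp2c29 RNA rose from 14643 ± 271 to 34471 ± 2191 normalised counts. Cyp2c54 went from 97.5 and 103 to 225 and 237 (1.20 ± 0.11, adjusted p = 0.00103). These P450s belong to families of near copies. RNA was higher for 16 of 27 tested genes of this list and lower for 6, against 23.4% and 21.4% of all 12220 tested genes. Cyp2b10 RNA, at 2.63 ± 1.16 and 8.56 ± 0.58 normalised counts, was below the count filter and not tested. Cyp3a11, Cyp3a25 and Aldh1a1, named after their values were seen, had called rises but RNA that was not called (adjusted p = 0.576, 0.939 and 0.733).

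ATF4 targets and serine synthesis genes had 3 of 46 regions higher, at Asns, described above, at Vldlr, a lipoprotein receptor (31.6 and 46.3 against 96.3 and 86.6, 1.22 ± 0.19, adjusted p = 0.0113), and at Mthfd1l, a mitochondrial folate enzyme (61.6 and 83.7 against 134 and 134, 0.88 ± 0.16, adjusted p = 0.0211). None was lower (0 also at an unadjusted p below 0.05 and by DESeq2). Of the clock genes, 2 of 39 regions were lower, both at the repressor Bhlhe41 (522 and 493 against 287 and 236 at its start, -0.96 ± 0.11, adjusted p = 0.00247), and Bhlhe41 RNA fell from 67.7 ± 8.97 to 18.3 ± 3.98 normalised counts. Lipogenic genes had 1 of 60 higher, at the fatty acid elongase Elovl5 (820.2 and 860.0 against 1238 and 1239, 0.56 ± 0.08, adjusted p = 0.00798). Bile acid genes had 1 of 35 higher, at the phospholipid transporter Abcb4 (0.96 ± 0.19, adjusted p = 0.0359, not called with TMM or DESeq2). Gluconeogenic and glycolytic genes had 2 of 60 higher, at Slc2a2, the hepatocyte glucose transporter (0.72, not called with TMM or DESeq2), and the coactivator Ppargc1a (0.67), and 1 lower at glycogen synthase Gys2 (-0.88 ± 0.19, adjusted p = 0.0427, not called with TMM). Fetal liver and tumour genes had 1 of 32 higher, at the surface protein Ly6d (0.74, adjusted p = 0.038, not called with TMM or DESeq2).

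Lists for the NCOR complex, cholesterol synthesis and the acute phase had no call by edgeR or DESeq2. The NCOR complex had 0 of 30 regions (4 higher and 0 lower at an unadjusted p below 0.05, median 0.16), cholesterol synthesis 0 of 52 (2 and 4, median -0.07) and acute phase genes 0 of 57 (3 and 6, median -0.16).

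Marker lists of liver cell types were read as a check of the tissue. Hepatocyte markers had 2 of 59 regions higher and none lower (12 and 0 at an unadjusted p below 0.05, 1 and 0 with TMM, 0 and 0 with DESeq2), at Alb (729 and 794 against 1155 and 1004 normalised tags, 0.50 ± 0.09, adjusted p = 0.0264, not called with TMM) and Cyp2e1 (1246 and 1214 against 1765 and 1589, 0.45 ± 0.08, adjusted p = 0.0263). Only LKO livers carry the Alb-Cre transgene, and whether its albumin sequence added tags to the Alb region was not tested. Endothelial markers had 1 of 50 higher, upstream of Vwf (11.59 and 12.3 against 34.6 and 31.9 tags, 1.47 ± 0.22, adjusted p = 0.00921), while Vwf RNA was 95.9 ± 8.79 and 96.0 ± 18.2 normalised counts. Macrophage markers had no call by edgeR or DESeq2 in 45 regions (6 higher and 0 lower at an unadjusted p below 0.05) and a median of 0.24. RNA of 13 of 15 tested macrophage markers was higher and of 1 lower, against 23.4% and 21.4% of all 12220 tested genes. The summed H3K27ac of the macrophage list was 1844 and 1989.9 normalised tags in WT and 1949 and 2626 in LKO, highest in LKO replicate 2, and its part in the results was not tested. Stellate cell and fibroblast markers had 0 calls in 37 regions (1 higher and 0 lower at an unadjusted p below 0.05). RNA of 15 of 15 tested genes of that list was higher, where 23.4% of all tested genes were higher. The summed H3K27ac of that list was 2094 and 2023 normalised tags in WT and 2191 and 2241 in LKO, and its part in the results was not tested. There were no calls for cholangiocyte markers in 10 regions (1 and 1 at an unadjusted p below 0.05) or lymphocyte markers in 14 (0 and 0), and DESeq2 called none in these 3 lists.

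**Figure D4:**
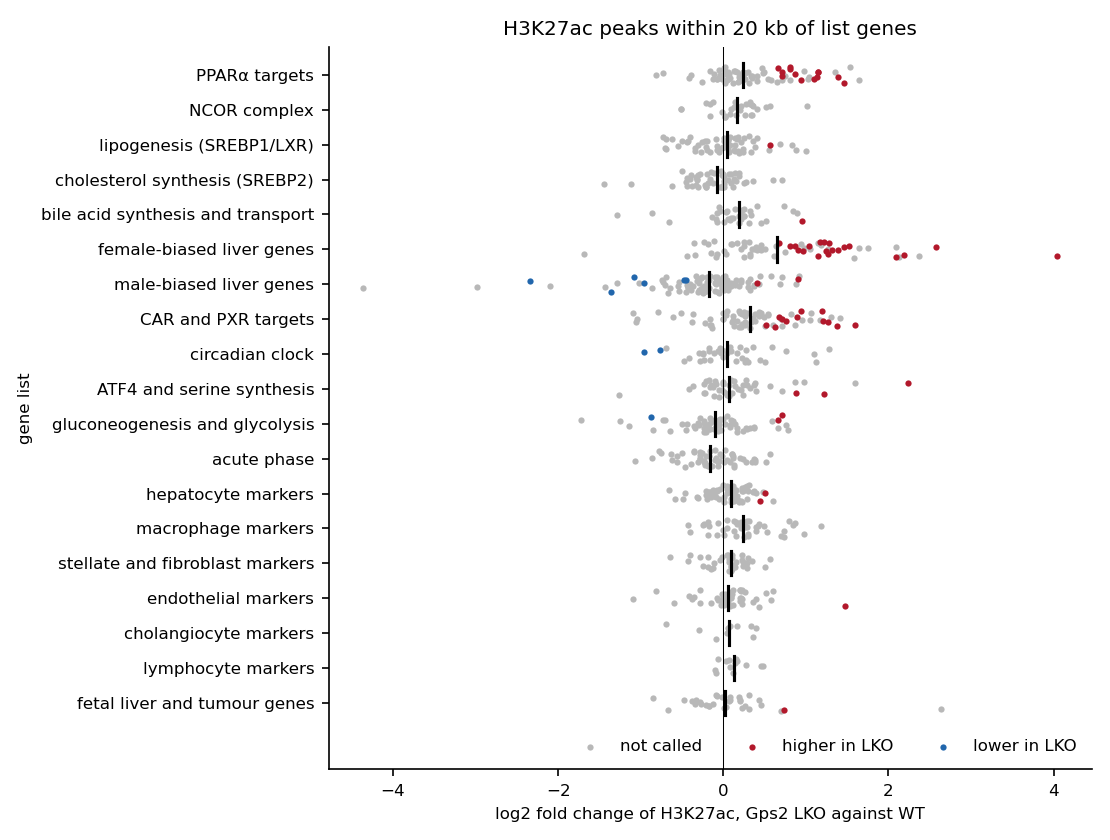
Log2 fold change of H3K27ac (LKO against WT, total tags) at each region within 20000 bp of a gene of each list, red where called higher, blue where called lower and grey otherwise, with the list median as a bar. Female-biased genes have the highest median (0.65) and 20 called rises, and male-biased genes a median of -0.17 and 6 called falls.

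RNA of neighbouring genes was compared in the 4 WT and 4 LKO livers. Of 12220 genes tested, 2856 (23.4%) were higher and 2621 (21.4%) lower in LKO liver. Among 245 tested genes with a higher H3K27ac region within 20000 bp, RNA was higher for 162 (66.1%), lower for 12 and not called for 71, and among 45 genes with a lower region it was lower for 34 (75.6%), higher for 3 and not called for 8. Genes with any H3K27ac region in this range gave 23.4% higher and 22.3% lower (n = 10988). Limiting the distance to 10000 bp gave 76.0% and 82.9%, and 50000 bp gave 58.8% and 72.7%.

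Some neighbours went opposite to the mark. The region 19271 bp upstream of Clasp1, a microtubule regulator, rose from 28.4 and 30.6 to 71.5 and 54.7 tags (1.09 ± 0.19, adjusted p = 0.0198), while Clasp1 RNA fell from 402 ± 16.6 to 282 ± 59.6 normalised counts (adjusted p = 0.00483). Upstream of Rnf152, a lysosomal ubiquitin ligase, the mark rose from 20.4 and 15.7 to 39.1 and 35.7 and RNA fell by 0.43 on the log2 scale. At Pld4, an endolysosomal nuclease, the mark fell from 33.6 and 33.4 to 15.05 and 18.7 and RNA rose from 78.9 ± 14.9 to 129 ± 9.39. Gys2, above, also paired a fall of the mark with a rise of RNA (5696 ± 95.7 and 6734 ± 314). The calls of the mark at Rnf152, Pld4 and Gys2 were lost with TMM (and with DESeq2 at Rnf152 and Pld4), and the RNA call of Rnf152 was lost when the trend of the fold change with exon length was removed.

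**Figure D5:**
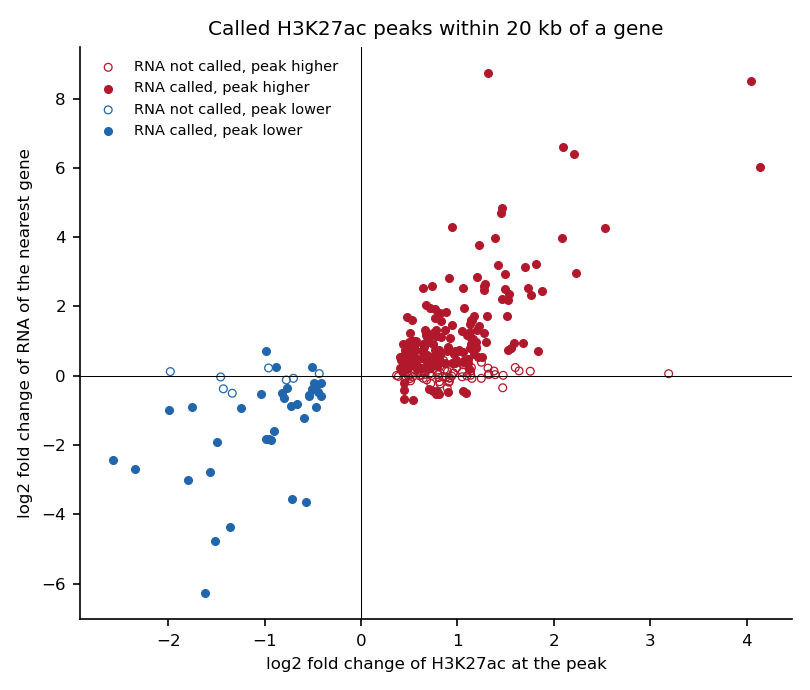
Log2 fold change of RNA (y axis, LKO against WT, 4 livers each) against log2 fold change of the called H3K27ac region (x axis) within 20000 bp of the gene, red for higher and blue for lower regions, filled where RNA was called. RNA was called higher for 162 of 245 genes with a higher region and lower for 34 of 45 with a lower region.

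H3K4me3, the methylation that marks promoters, was measured in 2 WT and 2 LKO livers and counted on the same regions. It was higher at 112 (0.187%) and lower at 12 (0.0201%) of 59767 tested regions, with 3291 at an unadjusted p below 0.05. At the regions of higher H3K27ac, 60 of 924 were higher in H3K4me3 and none lower (7 at an unadjusted p below 0.05, DESeq2 not run), with a median log2 fold change of 0.28. At the regions of lower H3K27ac, 9 of 166 were lower and none higher (0 at an unadjusted p below 0.05), with a median of -0.43, and the median over all was 0.02. None of these calls at changed H3K27ac regions was left in either direction when either H3K4me3 WT library was omitted. Among the named regions H3K4me3 fell at both Rassf3 regions (213 and 216 against 47.9 and 36.7 normalised tags at the distal one, -2.34, adjusted p = 8.72e-05). It rose at Cyp2c29 (344 and 373 against 843 and 771, 1.17, adjusted p = 6.50e-05), Asns (123 and 110.1 against 252 and 232, 1.05, adjusted p = 0.00473), the Acot3 region (245 and 329.7 against 511 and 622, 0.98, adjusted p = 0.00906) and Cyp4a14 (33.8 and 55.4 against 125 and 241, 2.04, adjusted p = 0.0178). At Tmeff2 H3K4me3 was at 1.19 and 2.61 against 7.89 and 9.58 tags and was not called (adjusted p = 0.267).

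GPS2, NCOR and PPARα binding in WT liver of the Gps2 line was compared by overlap. GPS2 regions (1 library) lay in 77.3% of higher and 77.7% of lower H3K27ac regions, against 44.5% of those not called. NCOR regions (listed in at least 2 of 3 libraries) lay in 82.3%, 77.7% and 43.5%, and PPARα regions (in at least 1 of 3) in 90.4%, 86.1% and 52.7%. Occupancy rose with width. In regions over 4000 bp GPS2 lay in 93.1% of higher, 97.4% of lower and 86.4% of uncalled regions, and in those above 2000 and up to 4000 bp in 76.8%, 69.5% and 60.8%. In each width class above 1000 bp, rises and falls both had higher shares than uncalled regions for all 3 factors. These shares were not tested.

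The same mark in liver lacking NCOR or SMRT was compared, with 3 WT and 3 LKO libraries in each line, at regions of the separate tables that overlapped by at least 1 bp. Matched regions can differ in extent, and several regions can share 1 match. In Ncor LKO liver 1594 (2.32%) of 68817 regions were higher and 551 (0.801%) lower, with 10686 at an unadjusted p below 0.05. In Smrt LKO liver edgeR called 0 of 68800, with 4079 at an unadjusted p below 0.05, and DESeq2 was not run. Of the regions higher in Gps2 LKO liver 878 had a match, of which 152 were also higher in Ncor LKO liver and 14 lower, with a median log2 fold change of 0.29 there and 0.04 in Smrt LKO liver. Of those lower in Gps2 LKO liver 164 had a match, of which 24 were lower and 13 higher in Ncor LKO liver (median -0.23, and -0.16 in Smrt LKO). Regions not called in Gps2 LKO liver gave 1328 higher and 478 lower of 51194 in Ncor LKO liver, with a median of -0.01. At some matches the WT livers of the Smrt line started from another level. At Cux2 their mean was 147 normalised tags, against 3.56 in the Gps2 line and 7.15 in the Ncor line. At Ccny it was 24.8, against 234 and 343. Other matches lay closer, such as the Pdk4 promoter (341, against 201 and 200). The part of these levels in the Smrt medians was not tested. The 152 shared rises became 48 without WT replicate 2, 69 without WT replicate 3 and 73 without WT replicate 1 of the Ncor line.

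Single regions were called in 1 or in both of the Gps2 and Ncor lines. Cyp4a14 (1.21, adjusted p = 0.0267), the intronic Pdk4 region (1.68, adjusted p = 0.00277), the nearer Cyp2b10 region (1.51, adjusted p = 0.00996) and Cyp2c29 (0.51, adjusted p = 0.0472) were higher in Ncor LKO liver as well. The promoter of Pdk4, not called in the Gps2 line, was higher in the Ncor line (0.65, adjusted p = 0.0236). Falls at Pdia5 and Ccny were shared (-2.27, adjusted p = 0.00322, and -2.25, adjusted p = 0.00152). Asns and Mthfd1l, which rose in Gps2 LKO liver, fell in Ncor LKO liver (-2.79, adjusted p = 0.0357, and -2.09, adjusted p = 0.0234). At Asns the WT libraries of the Ncor line lay far apart, at 77.7 ± 65.7 normalised tags (SD) against 11.3 ± 5.19 in LKO. Every LKO value there was still below every WT value. The regions matched to the falls nearest to Mup19 and Gm21320 were higher in Ncor LKO liver (1.94, adjusted p = 0.00517, and 0.54, adjusted p = 0.036). Those matches held a mean of 500.3 and 816 normalised tags in WT liver of the Ncor line, against 45.3 and 54.2 in the Gps2 line, within a cluster of near copies, so the stretches compared may differ. The Acot3, Tmeff2, Cux2 and Rassf3 regions were not called in the Ncor line (-0.23, -0.94, -0.03, and -0.61 and -0.39 for the distal and adjoining Rassf3 regions). Differences between the lines were not tested, since their tags were counted in separate tables.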

How the data were processed

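H3K27ac was measured by ChIP-seq in 2 WT and 2 LKO livers of the Gps2 line. Per the labels and the study's methods, chromatin was crosslinked (with formaldehyde alone per the methods, after disuccinimidyl glutarate per the labels), precipitated with Abcam ab4729, pooled over several precipitations per sample and made into Rubicon ThruPLEX libraries, and the authors aligned reads with Bowtie to mm9 and called peaks and counted tags with HOMER. The deposited tables hold raw tag counts per region, with total tags in the column headers, and the deposited peak lists hold coordinates and a HOMER score per peak for each library, of which only coordinates were used. RNA counts per gene came from polyA libraries aligned with HISAT2 by the authors. The table's own comparison columns (fold change, likelihood ratio, p, FDR and call) were not used.

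Regions were tested with edgeR 4.0.16 (R 4.3.3) by quasi-likelihood with total tags as library sizes, group as the only term and Benjamini-Hochberg adjustment over all 59843 regions, called at adjusted p below 0.05. H3K4me3, the Ncor and Smrt lines and RNA (TMM scaling, TMM-normalised counts) were fitted the same way. Alternatives were TMM, loess offsets, DESeq2 1.42.0, filters, other distance limits and leaving out each library. Distances and nearest genes are HOMER's, from the centre of the region to the start site. Occupancy and matching between tables used overlaps of 1 bp. Total tags of 25.02 M to 29.4 M per H3K27ac library limit precision at regions of few tags. In 1 simulated set of 59843 regions, changes were planted only in regions with a mean of at least 50 tags. Of these, 71.4% of 2-fold, 98.4% of 3-fold and 100% of 4-fold changes were recovered. Recovery at regions of fewer tags was not tested. Of 197 calls 18 were false, a larger share than the adjusted p limit of 0.05.

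The regions and gene lists were chosen with earlier results of these data known. Named regions were the 10 largest rises and falls called with total tags and TMM with a mean of at least 50 tags, the 5 genes with most called regions each way, the called regions of each list (at most 4), the 5 largest changes each way with RNA called in the same direction, up to 3 in the opposite direction, and Gps2, Pdk4 and Cyp4a14.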

Additional observations from a re-analysis of the deposited data

Results flagged for a closer look

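RNA of the 48 genes nearest to named regions was screened in each group of 4 livers for a sample far from the others, by the gap to its neighbour relative to the group's range. This singled out 5 of 96 groups, near the 5% expected by chance. Tmeff2 in LKO replicate 4 stood at 621.7 normalised counts (next 569.8), Cdk5rap1 in LKO replicate 1 at 103.3 (next 76.0), Slc22a27 in WT replicate 1 at 4.93 (next 1.01), Pdia5 in LKO replicate 2 at 1249 (next 1448), and Vwf in LKO replicate 1 at 68.9 (next 102).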

How the results depend on the processing

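Counts of higher regions were 582 with TMM, 529 with loess offsets, 482 with DESeq2, 568 over regions listed in at least 2 libraries and 2426 with the replicate number as a block, and lower regions were 100 over the regions of at least 2 libraries and 587 with the block. DESeq2 with total tags (634 and 130), the filter on low counts (881 and 160) and all rows of the table (914 and 166) stayed within 1.5 times. The labels state no pairing, and same-numbered libraries deviated from their group means with a correlation of 0.201 over 38063 regions, so with 2 pairs the numbers were not taken as pairs. All 925 and 166 called regions were called with the block too, and 582 and 158 with TMM. Leaving out 1 library gave 7 to 2550 higher and 2 to 1357 lower regions, fewest without WT replicate 1 and most without LKO replicate 1. The single library then left in an arm was assumed to vary like the other group.

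By distance, a promoter limit of 3000 bp put 135 higher regions in the first class and 123 in the second, and TMM gave 114, 207 and 208 in the 3 classes beyond 1000 bp. The differences in the share of tags became 0.557 points with that limit and -0.517, 0.0610, -0.0995 and 0.00276 with TMM. Leaving out 1 library gave 2 to 243, 1 to 551, 3 to 958 and 1 to 798 higher regions in the 4 classes and 0 to 90, 0 to 298, 2 to 584 and 0 to 385 lower ones.

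Among the lists, TMM gave 5 higher regions for PPARα targets and 1 each for male-biased, gluconeogenic and hepatocyte genes. A limit of 10000 bp gave 0 higher for gluconeogenic genes and 1 for hepatocyte markers, and 50000 bp gave 10 lower for male-biased genes. Leaving out 1 library gave 0 to 27 higher for PPARα targets, 0 to 27 for female-biased genes, 1 to 17 for CAR and PXR targets, 1 to 5 for ATF4 targets, 0 to 5 for gluconeogenic genes, 0 to 5 for hepatocyte markers and 0 to 4 for male-biased genes, which gave 0 to 29 lower, with 0 to 3 lower for clock genes. The low ends came without WT replicate 1.

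Genes higher in both H3K27ac and RNA ranged from 3 to 336 and those lower in both from 1 to 181. Both marks were higher at 0 to 93 regions and lower at 0 to 21 (18 with TMM). Shared calls with the Ncor line ranged from 48 to 170 higher and 16 to 28 lower, and those with the Smrt line stayed at 0.

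Of 62 named regions called, 51 kept their call with TMM, 53 with loess offsets, 44 of 55 tested with DESeq2, 62 with the block, 4 without WT replicate 1, 12 without WT replicate 2 and 61 without either LKO library, and 4 kept it throughout. Only the uncalled Gps2 region changed sign, to -0.0306 with TMM, -0.0129 with loess offsets and -0.0351 with DESeq2, and ranged from -0.0027 to 0.0466 with 1 library left out. The cause of these changes was not tested.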
